A study of Mus musculus with 54 samples.

Results

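The comparison set microglia that had received a co-culture partner for 15 min, called acceptors, against untreated microglia of the same replicate number. It holds the 4 acceptor libraries labelled 15 min and the 6 untreated libraries among the 54 libraries of the series. The 2 untreated libraries labelled replicate 2, and the 2 labelled replicate 4, were summed, which left 4 untreated samples and 4 pairs. All cells were primary microglia of neonatal C57BL/6 mice, grown in mixed culture with serum and L929 supernatant and shaken off the astrocyte layer, and each flask pooled more than 1 brain. Acceptors were dyed with CellTracer Violet for 15 min, kept with donor microglia for 15 min and sorted back out by flow cytometry. The donors had taken up 1 µM of Atto-488 alpha-synuclein over 14 h. The labels name alpha-synuclein for the donors only. The labels give the untreated cells no dye, donor or sort, so these steps cannot be told apart in this contrast. Passage was 3 in replicate 1, 1 in replicate 2 and 2 in replicates 3 and 4, alike in both groups. Nothing in the labels says that the replicates came from separate mice, so the p-values measure a spread between samples, not between mice. That spread was estimated over all 52 samples of 14 groups, not over these 4 pairs alone.

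Microglia are the resident macrophages of the brain. Alpha-synuclein is a neuronal protein that forms fibrils in Parkinson's disease, and microglia take it up and degrade it in lysosomes. The series title concerns a network in which microglia share degradation, and acceptors at 15 min are the earliest co-culture time after 0 min. Macrophages answer handling, contact and inflammatory signals within minutes through immediate early genes and NF-kB targets. They also carry a basal interferon programme, an antioxidant programme driven by the factor NRF2, and autophagy, the route by which cytosolic material is delivered to lysosomes.

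The 10 libraries held 7807389 to 14358778 counts on 13330 to 14653 genes. They were made from 3′ ends of mRNA, and 3.33% to 13.1% of counts in replicates 1 to 3, but 19.9% to 22.3% in replicate 4, fell on Rn45s, the ribosomal RNA precursor. The libraries of replicate 4 also carry a separate run of facility numbers. All 12 microglia and macrophage markers were detected, and none of them differed at an adjusted p under 0.05. Their summed level was 7085 to 10634 CPM (counts scaled to library size with TMM) in acceptors and 7106 to 12264 CPM in untreated cells. The defining markers P2ry12 (3.02 to 5.93 against 4.22 to 12.3 CPM) and Tmem119 (1.55 to 7.30 against 1.00 to 4.63 CPM) were low in both groups. In such bulk RNA, fewer cells of a type and less of its RNA per cell cannot be told apart.

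Of 13169 genes tested, 296 (2.25%) differed between acceptors at 15 min and untreated cells when the replicate number was kept as a block: 141 rose (1.07%) and 155 fell (1.18%). Most changes were modest. The median change was 0.59 on the log2 scale among genes that rose and -0.74 among those that fell, and 21 genes rose and 45 fell more than 2-fold. All 4 pairs moved the same way for 130 of the 141 and for 142 of the 155, against 10.4% and 12.2% of all genes tested. Acceptor and untreated samples did not overlap for 75 of the genes that rose and 44 of those that fell, against 1.85% and 1.69% of all genes (3.54% in either direction). The called genes were chosen by a test on these same samples, so both counts follow in part from that choice and are no separate support. Over all genes, the median difference was -0.02. Without the block, no gene passed (smallest adjusted p 0.0830), although all 296 had the same sign and 240 of them an unadjusted p under 0.05. In that fit 839 of all genes had an unadjusted p under 0.05, against 2212 with the block. Leaving out a pair gave 80 genes without replicate 1, 208 without replicate 2, 46 without replicate 3, and 96 that rose and 156 that fell (1.93%) in replicates 1 to 3 alone. Of the 296, 24 passed in each of these 4 fits. A fit on only the 2 groups compared, which takes the spread from them alone, gave 60 genes, 37 of them among the 296.

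Among the largest rises were those of chemokines and fast-response genes. Cxcl1 and Cxcl2 encode chemokines that attract neutrophils, and Ptgs2 encodes the inducible cyclooxygenase COX-2. Of 46 tested genes of an NF-kB inflammatory list, 4 rose and none fell (8.70% called). Of 40 tested immediate early genes, which are switched on without new protein synthesis, 4 rose and none fell (10.0% called). The median log2 difference was 0.35 over the NF-kB list and 0.21 over the immediate early list, beside -0.02 over all genes. In pairs 1 to 4 it was 0.33, -0.16, 0.08 and 1.11 over the NF-kB list and 0.30, -0.11, 0.35 and 0.45 over the immediate early list, so pair 2 was below 0 for both. Without replicate 4 the medians were 0.15 and 0.12, and 5 NF-kB list genes rose and 3 fell. Without replicate 1, and without replicate 2, Lcn2 was the 1 NF-kB list gene that passed. With no replicate left out, DESeq2 called 4 genes of this list that rose and 1 that fell, and Lcn2 was not among them. A fit on only the 2 groups compared called 1 NF-kB list gene, Ptgs2, and no immediate early gene. The promoters of both chemokines are shown because these neighbouring genes on chromosome 5 rose together and each holds an NF-kB word, in capitals, 61 (Cxcl1) and 87 (Cxcl2) bases before the start. The windows are the 250 bases before the start from RefSeq on GRCm38.p6, plus strand, and the word searched was GGGA, any base, then TTTCC. They lie at chr5:90890995-90891244 for Cxcl1 and chr5:90903649-90903898 for Cxcl2.
Cxcl1: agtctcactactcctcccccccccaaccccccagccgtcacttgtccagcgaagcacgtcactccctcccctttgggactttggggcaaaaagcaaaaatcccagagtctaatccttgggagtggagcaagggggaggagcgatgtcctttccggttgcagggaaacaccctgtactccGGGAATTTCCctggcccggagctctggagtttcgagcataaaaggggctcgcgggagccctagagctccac
Cxcl2: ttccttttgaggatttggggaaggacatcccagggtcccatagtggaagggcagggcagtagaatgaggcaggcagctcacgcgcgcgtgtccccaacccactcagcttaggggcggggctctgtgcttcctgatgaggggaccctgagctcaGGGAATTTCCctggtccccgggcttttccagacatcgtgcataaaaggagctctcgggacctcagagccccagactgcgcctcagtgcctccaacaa
On either strand this word was in 0.36% of 32851 promoters of that length and in 7 of the 34 NF-kB list genes that have one, 2 of which are among the 4 that rose.

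Cxcl1 read 7.89, 8.38, 8.63 and 11.9 CPM in acceptors of replicates 1 to 4, and 1.51, 1.35, 3.94 and 0.867 CPM in the untreated cells. The groups did not overlap, and the log2 change was 2.30 (SE 0.59, adjusted p = 0.0258). Cxcl2 stood at 174, 215, 182 and 211 CPM in acceptors against 42.3, 61.5, 82.5 and 10.1 CPM. Its acceptor values were close together, and the untreated value of replicate 4 was the low one (log2 change 1.80, SE 0.44, adjusted p = 0.0206). Ptgs2 stood at 22.7, 11.6, 15.2 and 37.3 CPM against 3.33, 4.93, 3.17 and 3.20 CPM (2.44, SE 0.65, adjusted p = 0.0332). Every acceptor sample was above every untreated one. Lcn2, the iron-carrier binding protein lipocalin 2, was at 0, 0.516, 0.562 and 25.2 CPM against 0, 0.0872, 0.600 and 1.21 CPM, so its call rests on replicate 4 (without it, log2 change 0.60, adjusted p = 0.891). With a pair left out, the adjusted p ranged from 0.0172 to 0.168 for Cxcl1, from 0.00226 to 0.158 for Cxcl2 and from 0.00531 to 0.180 for Ptgs2, and each kept its call without replicate 4.

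Among immediate early genes, Dusp1, a phosphatase that switches off MAP kinases, stood at 319, 281, 291 and 556 CPM in acceptors and 134, 221, 102 and 56.8 CPM in untreated cells. The groups did not overlap, although pair 2 moved little (log2 change 1.38, SE 0.25, adjusted p = 0.00142). Dusp1 lies on the minus strand of chromosome 17 (26505590 to 26562128, GRCm38) and overlaps Ergic1 on the other strand, and whether counting used strand is not given in the sources used here. Sqstm1, Slc7a11, Txnip, Cir1, Slc6a9, Wee1, Slfn5, Trim30a, S100b, Mapt, Syt4 and Cmklr1 also overlap an annotated gene on the other strand. Further called genes named below that do so are Gabarapl1, Map1lc3b, Tax1bp1, Fbxo32, Lcp1, Lima1, Tpm4, Wdr1 and Cnp. Ier3, a stress-induced survival gene, stood at 50.7, 31.3, 63.1 and 140 CPM against 20.3, 22.8, 16.7 and 17.3 CPM (1.43, SE 0.36, adjusted p = 0.0227). Klf4, a zinc-finger factor of macrophages, rose by 1.31 (SE 0.33, adjusted p = 0.0234), with overlapping groups, and Btg1, an antiproliferative gene, by 0.64 (SE 0.17, adjusted p = 0.0264). Without replicate 3, Dusp1 had an adjusted p of 0.0536 and Ier3 of 0.226, and Klf4 was the only immediate early gene to pass. Ppp1r15a, a stress-induced phosphatase subunit, was at 31.8 to 45.0 CPM in acceptors and 16.3 to 31.0 CPM in untreated cells and missed the threshold (adjusted p = 0.0507). Of 19 tested glucocorticoid-responsive genes, 3 rose and none fell (15.8% called): Dusp1 and Lcn2 again, and Sgk1, a kinase of ion and cell-survival control, at 104 to 154 CPM against 53.4 to 100 CPM (0.71, SE 0.18, adjusted p = 0.0227).

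**Figure D1:**
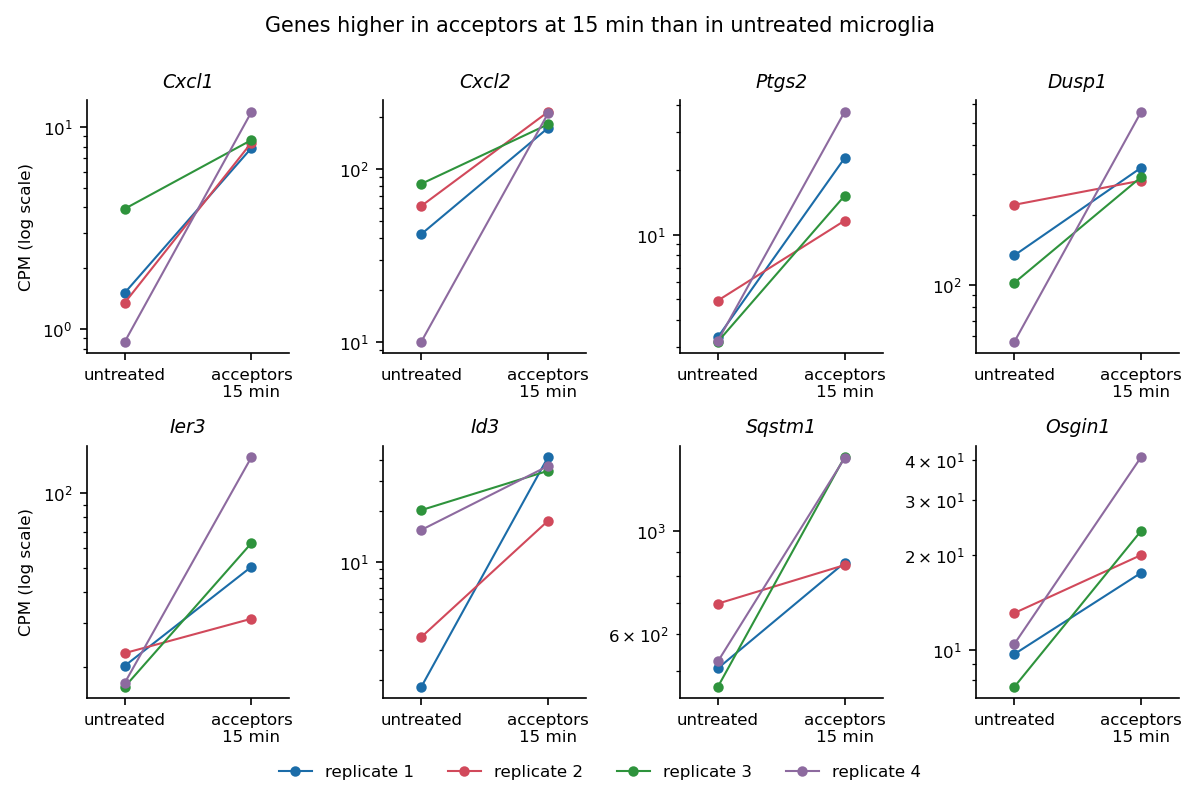
Level in CPM (log axis) of 8 genes in untreated microglia and acceptors at 15 min, with a line joining the samples of each replicate number. Every line rises, and for Cxcl1, Cxcl2, Ptgs2, Dusp1, Ier3, Sqstm1 and Osgin1 the acceptor samples lie above all untreated ones.

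Some genes of the NRF2 antioxidant list and of autophagy also rose. Sqstm1 encodes p62, an NRF2 target that carries ubiquitin-tagged cargo into autophagosomes. It stood at 854, 845, 1440 and 1432 CPM in acceptors and 507, 698, 463 and 525 CPM in untreated cells. No acceptor sample reached down to the untreated range (log2 change 1.00, SE 0.16, adjusted p = 0.000517). Osgin1, an oxidative stress response gene, stood at 17.6, 19.99, 23.9 and 40.9 CPM against 9.69, 13.1, 7.63 and 10.4 CPM (1.28, SE 0.24, adjusted p = 0.00191). Slc7a11, the cystine importer that supplies glutathione synthesis, stood at 6.85, 1.03, 33.7 and 30.3 CPM against 2.93, 1.70, 6.34 and 5.47 CPM, so replicate 2 went the other way (1.70, SE 0.44, adjusted p = 0.0259). These were the 3 called among 36 tested NRF2 list genes (8.33%), none of which fell. The list median was 0.12, with 12 of 36 negative, and it was -0.08 in pair 1 and 0.05 without replicate 4. The antioxidant word TGACNNNGC was in none of their 3 promoters, in 7 of 29 list promoters and in 10.2% of all promoters. Without replicate 3 the adjusted p was 0.060 for Sqstm1 and 0.0536 for Osgin1, and no NRF2 list gene passed. The fit on only the 2 groups compared also called no gene of this list. Sqstm1 (minus strand of chromosome 11, 50199366 to 50210827, GRCm38) overlaps Mrnip there.

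The autophagy list was drawn up after the values were seen and is described without a test. Of its 48 genes, 8 rose and none fell (16.7% called), with a median of 0.17 and 34 of the 48 positive. Besides Sqstm1 these were Atg12, a ubiquitin-like conjugation protein, at 105, 97.6, 108 and 110 CPM against 64.0, 84.7, 55.4 and 71.8 CPM. Its groups did not overlap (log2 change 0.62, SE 0.10, adjusted p = 0.000579). Atg2a, which transfers lipid to the growing membrane, was at 40.8 to 45.0 CPM against 22.3 to 28.9 CPM (0.72, SE 0.13, adjusted p = 0.00124). Gabarapl1 and Map1lc3b are both of the ATG8 family, which decorates autophagosomes, and rose by 0.74 (SE 0.13) and 0.33 (SE 0.09). Tax1bp1, a cargo receptor, rose by 0.52 (SE 0.10), Wdr45b by 0.42 (SE 0.09) and Atg13, a subunit of the initiating kinase complex, by 0.53 (SE 0.13). Atg12, Atg2a, Gabarapl1 and Tax1bp1 passed in every fit that left out a pair, and the list held 4 to 8 called genes there. Gabarapl1 was the 1 list gene that passed in the fit on only the 2 groups compared. The lysosome list, which covers hydrolases and membrane proteins, had 1 called gene of 51 (1.96%) and a median of 0.04. That gene was Gla, alpha-galactosidase A, at 97.5 to 133 CPM against 71 to 95.1 CPM (0.45, SE 0.12, adjusted p = 0.0280). Ctsl, a lysosomal protease, was at 562 to 770 CPM against 494 to 616 CPM and did not pass (adjusted p = 0.216).

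Txnip had the smallest p among genes that fell. It encodes a thioredoxin-binding protein that restrains glucose uptake and is itself induced by glucose and by FOXO factors. It stood at 115, 129, 66.3 and 42.8 CPM in acceptors and 240, 307, 147 and 156 CPM in untreated cells. All acceptor samples were below all untreated ones (log2 change -1.33, SE 0.18, adjusted p = 4.88e-05), and the call held with each pair left out. A list of FOXO target genes, also drawn up after the values were seen, had 5 genes that rose and Txnip as the 1 that fell among 26 tested (23.1% called). The 5 were Bmf, a pro-apoptotic BCL2 relative (0.82, SE 0.20), Btg1, Klhl24 (0.67, SE 0.18), the ubiquitin ligase gene Fbxo32 (0.92, SE 0.25) and the translation repressor gene Eif4ebp1 (0.48, SE 0.14). None of these 5 passed without replicate 1 and none without replicate 3. Txnip alone of the list passed in the fit on only the 2 groups compared.

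Outside the lists, the smallest p among genes that rose was that of Oga, the enzyme that removes O-GlcNAc from proteins. Oga stood at 134, 117, 117 and 203 CPM against 78.3, 84.0, 59.4 and 113 CPM, with the groups apart (0.76, SE 0.10, adjusted p = 3.77e-05). Mybpc3, known as a myosin-binding protein of heart muscle, was at 8.36, 4.64, 5.19 and 9.48 CPM against 2.62, 0.785, 1.2 and 1.47 CPM (2.24, SE 0.35, adjusted p = 0.000258). Cir1, a transcriptional corepressor gene, rose by 0.62 (SE 0.10, adjusted p = 0.000365). Oga, Mybpc3 and Cir1 kept their calls with each pair left out. Slc6a9, a glycine transporter gene, rose by 1.35 (SE 0.34, adjusted p = 0.0227). With a pair left out, Slc6a9 kept its call only without replicate 4 (adjusted p up to 0.281). The receptor subunit genes Csf2rb and Csf2rb2, picked after their values were seen, rose by 0.68 and 0.69. They are near-identical copies whose reads may have been split between them. With a pair left out, the adjusted p ranged from 0.0259 to 0.179 for Csf2rb and from 0.00237 to 0.113 for Csf2rb2. Of 33 tested TGF-beta pathway genes, Id3 and Skil rose and Tgfbr2 fell (9.09% called, beside 2.25% of all genes tested). The list median was 0.06, with 18 genes positive and 15 negative. Id3, an inhibitor of helix-loop-helix factors, stood at 41.5, 17.4, 34.4 and 36.7 CPM against 1.82, 3.58, 20.1 and 15.4 CPM (1.86, SE 0.45, adjusted p = 0.0195). Id3 did not pass without replicate 1 (adjusted p = 0.226) or without replicate 3 (adjusted p = 0.0524). The rise was 0.71 (SE 0.20) for Skil, a SMAD corepressor that TGF-beta itself induces, but pair 2 went the other way (56.4 against 60.4 CPM). Skil passed with the adjusted p at 0.0455, and without replicates 1, 3 or 4 it was 0.359, 0.170 and 0.206. Tgfbr2, the type II receptor, stood at 100, 84.9, 102 and 73.5 CPM against 172, 130, 144 and 101 CPM (-0.59, SE 0.12, adjusted p = 0.00584). It kept its call only without replicate 4 when a pair was left out (adjusted p up to 0.112). The type I receptor Tgfbr1 was at 57.4 to 129 CPM against 43.6 to 93.1 CPM and did not pass (adjusted p = 0.0630).

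Some DNA replication genes fell. Of 42 tested S-phase genes, 7 fell and none rose (16.7% called), and the median was -0.55 with 41 of 42 negative. They were Mcm2, Mcm3, Mcm4 and Mcm6 of the replicative helicase, Rrm1 of ribonucleotide reductase, Uhrf1, which maintains DNA methylation, and Cdca7. Mcm2 stood at 11.4, 7.61, 11.5 and 8.19 CPM in acceptors and 27.3, 9.55, 24.2 and 23.9 CPM in untreated cells. Replicate 2 had a low untreated value, so the groups overlapped (log2 change -1.09, SE 0.20, adjusted p = 0.00144). The change was -0.64 (SE 0.13) for Mcm3, -0.71 (SE 0.19) for Mcm4 and -0.40 (SE 0.09) for Mcm6. Cdca7 fell by 1.74 on the log2 scale (SE 0.47), Uhrf1 by 1.43 (SE 0.35) and Rrm1 by 0.77 (SE 0.20). In pair 2, of passage 1, the list median was 0.18, whereas it was -0.56, -0.67 and -0.98 in pairs 1, 3 and 4. With a pair left out, 1 to 8 list genes passed, and Mcm2 was the 1 that remained without replicate 3. None of the 42 passed in a fit on only the 2 groups compared, where the list median was -0.53. Of 42 G2/M genes 1 fell (2.38% called, beside 2.25% of all genes tested), Tpx2, a spindle assembly factor (-0.74, SE 0.16, adjusted p = 0.00876). Tpx2 did not pass without replicate 2 (adjusted p = 0.102) or without replicate 4 (adjusted p = 0.0517). The list median was nevertheless -0.68, and in pairs 1 to 4 it was -0.38, 0.20, -0.91 and -1.16. Kif23, a kinesin of cell division, was at 7.16 to 27.8 CPM against 15.0 to 31.4 CPM (adjusted p = 0.0791). Wee1, the kinase that holds back mitosis, is in neither list. It stood at 4.04, 4.26, 5.90 and 5.95 CPM against 16.5, 6.45, 12.5 and 13.2 CPM (-1.22, SE 0.20, adjusted p = 0.000517) and held with each pair left out.

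The promoter of Mcm6 shows the E2F words searched, TTTCGCGC and TTTGGCGC on either strand, in capitals. It is the 250 bases before the start, on the minus strand of GRCm38.p6 at chr1:128359706-128359955.
Mcm6: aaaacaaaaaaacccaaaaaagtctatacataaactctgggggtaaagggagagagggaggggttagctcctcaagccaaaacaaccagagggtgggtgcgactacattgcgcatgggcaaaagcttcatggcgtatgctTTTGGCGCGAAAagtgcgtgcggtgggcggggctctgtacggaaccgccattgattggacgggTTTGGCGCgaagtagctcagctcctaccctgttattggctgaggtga
The window holds 3 matches, 2 of which overlap, at 39, 98 and 102 bases before the start. Such a word was in 0.65% of all promoters, in 5 of the 33 S-phase genes that have one and in 2 of 6 that fell, Mcm6 and Uhrf1.

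A few interferon-stimulated genes fell. Of 59 tested, 4 fell and none rose (6.78% called), with 55 negative and a median of -0.75. Among them were Stat2, a factor that carries interferon signals, Trim30a and Slfn5. Stat2 stood at 50.1, 166, 58.7 and 28.0 CPM in acceptors and 81.3, 385, 101 and 58.2 CPM in untreated cells. Replicate 2 was the highest of each group, and every pair fell (log2 change -0.96, SE 0.27, adjusted p = 0.0410). Slfn5 stood at 78.8, 202, 115 and 47.0 CPM against 164, 493, 186 and 112 CPM (-1.09, SE 0.27, adjusted p = 0.0199). The change was -0.85 (SE 0.24, adjusted p = 0.0463) for Trim30a. The list median was -1.21 in pair 2 and -0.18 to -0.55 in the others. No list gene passed without replicate 1 and none without replicate 3, whereas 3 passed without replicate 2 and 14, all lower, without replicate 4. The fit on only the 2 groups compared called 8, all lower. Ccl12, a monocyte chemokine, was at 2.50 to 19.6 CPM against 4.75 to 127 CPM, and its log2 level fell by 2.00 (SE 0.50, adjusted p = 0.0227). The 127 CPM was that of untreated replicate 2, without which Ccl12 changed by -1.47 (adjusted p = 0.225). With a pair left out, Ccl12 kept its call only without replicate 4. Among 26 MHC presentation genes none passed, and their activator Nlrc5 was at 9.48 to 23 CPM against 12.3 to 78.7 CPM (adjusted p = 0.0562).

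The Stat2 promoter is shown for the core of the interferon-stimulated response element (GAAA, any 2 bases, GAAA), in capitals and here on the reverse strand. It is the 250 bases before the start on the plus strand of GRCm38.p6, chr10:128270248-128270497.
Stat2: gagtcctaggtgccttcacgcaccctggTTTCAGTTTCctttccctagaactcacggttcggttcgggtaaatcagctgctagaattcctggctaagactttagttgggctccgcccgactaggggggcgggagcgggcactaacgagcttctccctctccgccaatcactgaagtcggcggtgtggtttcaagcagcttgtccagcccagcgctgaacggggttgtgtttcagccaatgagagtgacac
The core was in 2.98% of all promoters, in 20 of the 45 list genes that have one, and in each of the 3 that fell and have one (Stat2, Trim30a and Slfn5).

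**Figure D2:**
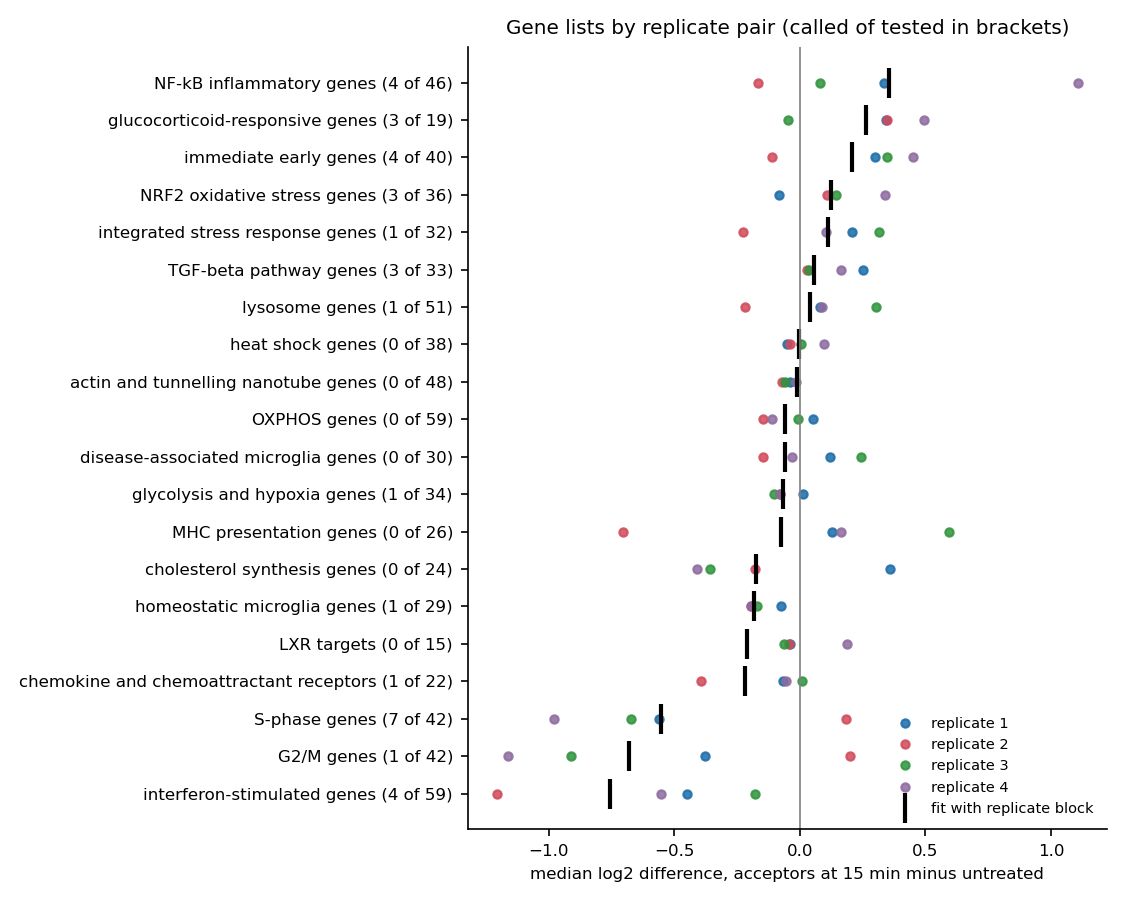
Median log2 difference of each gene list, acceptors at 15 min minus untreated, with a dot for each of the 4 replicate pairs and a black tick for the fit with the replicate block (called of tested in brackets). The S-phase dots lie at -0.56, 0.18, -0.67 and -0.98, and all 4 interferon dots lie below 0.

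A few transcripts of other brain cells also fell. Of 11 oligodendrocyte markers 3 fell, where 1.18% of all genes tested fell. Among them were Mobp (0 to 0.842 against 0.641 to 9.34 CPM) and Cnp (34.1 to 79 against 49.8 to 166 CPM). With a pair left out, both kept their call only without replicate 4 (adjusted p up to 0.216 and 0.367). The others did not pass, among them Mbp, which had the highest mean (74.7 to 105 against 64.5 to 186 CPM, adjusted p = 0.352). The summed level of all 11 was 133 to 336 CPM against 272 to 713 CPM. Of 12 astrocyte markers 1 fell, S100b (0 to 2.39 against 1.09 to 14.6 CPM), but it passed in none of the fits that left out a pair (adjusted p 0.0766 to 0.213). The astrocyte markers summed to 21.3 to 58.9 CPM against 27.0 to 184 CPM, and in pair 1 the sum was higher in acceptors (36.0 against 27.0 CPM). None of the 7 tested of 11 neuronal markers passed, with sums of 2.44 to 22.8 CPM against 4.54 to 36.5 CPM. None of 4 tested endothelial markers passed, with sums of 42.8 to 58.3 CPM against 53.7 to 97.6 CPM. Fibroblast and mural markers summed to 1.5 to 16.5 CPM against 1.74 to 24.6 CPM, and neutrophil and lymphocyte markers to at most 0.517 CPM in any of these samples. Map1b, a microtubule protein of neurons, stood at 1.60, 0.387, 4.70 and 2.24 CPM against 3.03, 3.45, 17.4 and 9.54 CPM (-1.94, SE 0.36, adjusted p = 0.00191), and passed with each pair left out. Mapt, which encodes tau, was lower by the same test (-1.84, SE 0.48, adjusted p = 0.0295), as were the neuronal RNA-binding protein gene Elavl3 (-1.87, SE 0.50) and Syt4 (-2.63, SE 0.70), a synaptotagmin. With a pair left out, Mapt kept its call only without replicate 1, Elavl3 only without replicate 2 and Syt4 only without replicate 4. Their adjusted p in those fits reached 0.235, 0.231 and 0.188. Replicate 3 held the highest level of Map1b, Mapt, Elavl3 and Syt4 in both groups. The sums in acceptors labelled 0 min, 163 to 318 CPM for oligodendrocyte and 23 to 47.4 CPM for astrocyte markers, were near those at 15 min. The part of these cells in the other gene groups was not tested.

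**Figure D3:**
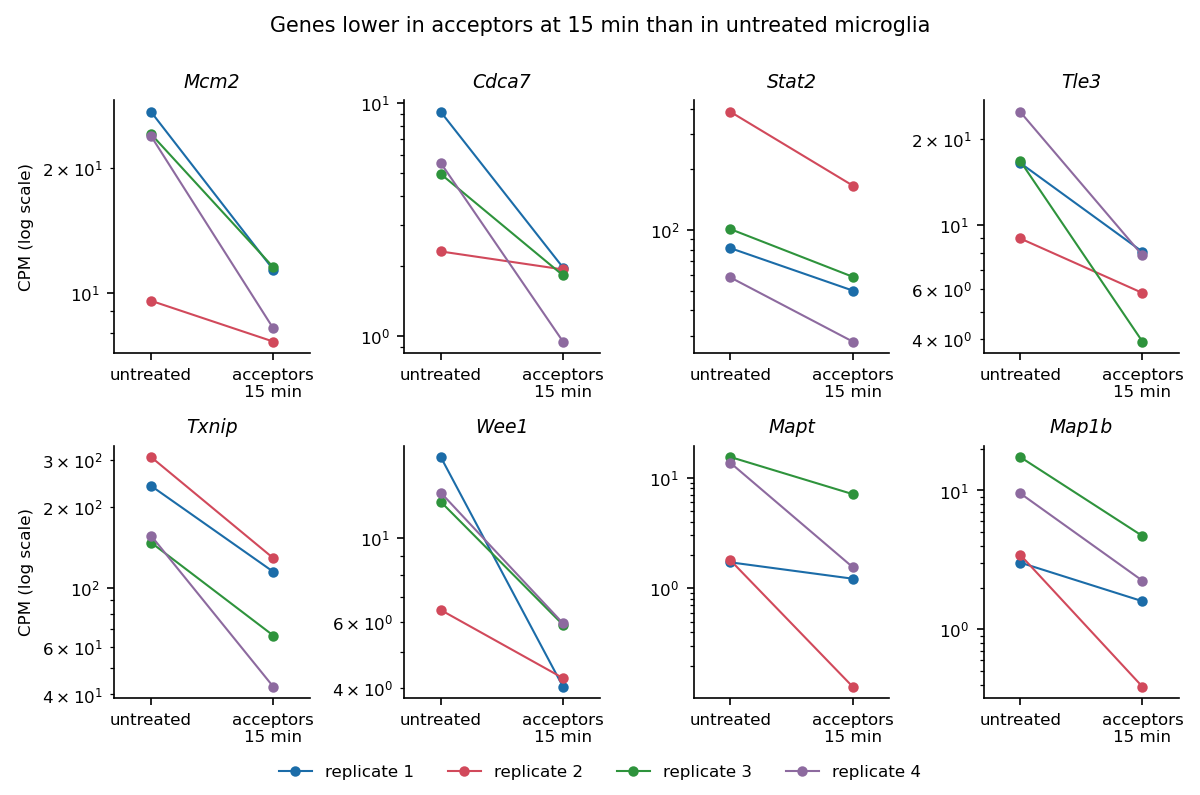
Level in CPM (log axis) of 8 genes in untreated microglia and acceptors at 15 min, joined by replicate number. Every line falls, and for Txnip, Wee1, Tle3 and Cdca7 all acceptor samples lie below all untreated ones.

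Several genes of the actin filament fell by small amounts. This list was also drawn up after the values were seen. Of its 50 genes 9 fell and none rose (18.0% called), with 45 of 50 negative and a median of -0.19. Actb, the main cytoplasmic actin, stood at 10983, 11649, 9658 and 12266 CPM against 14405, 13384, 13659 and 19184 CPM, with the groups apart (-0.43, SE 0.10, adjusted p = 0.0166), but it passed in none of the fits that left out a pair (adjusted p 0.0518 to 0.144). Actg1 fell by 0.66 (SE 0.14), the filament-binding Cotl1 by 0.54 (SE 0.11), the calponin Cnn2 by 0.81 (SE 0.15) and the tropomyosin Tpm4 by 0.49 (SE 0.11). The bundling protein Lcp1 fell by 0.44 (SE 0.10), Lima1 by 0.70 (SE 0.18), Dbnl by 0.51 (SE 0.14) and Wdr1, which helps disassemble filaments, by 0.29 (SE 0.07). Cotl1 passed with each pair left out, and 1 (without replicate 3) to 7 list genes passed in those fits. Actg1 was the 1 list gene that passed in the fit on only the 2 groups compared. An earlier list of 48 genes covers actin regulators and tunnelling nanotubes, the thin bridges that connect cells. None of these passed the test, and the list median was -0.01. An unadjusted p under 0.05 was found for 12 of the 48, and for 20 of the 50 actin filament genes. Because the actin filament list was drawn up after the values were seen, the called shares of the lists cannot be set against each other. Members of the earlier list with the smallest p were Enah (0.516 to 8.21 against 1.01 to 19.2 CPM, adjusted p = 0.0653) and the formin Fmnl3 (39.6 to 58.7 against 24.9 to 38.6 CPM, adjusted p = 0.102).

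**Figure D4:**
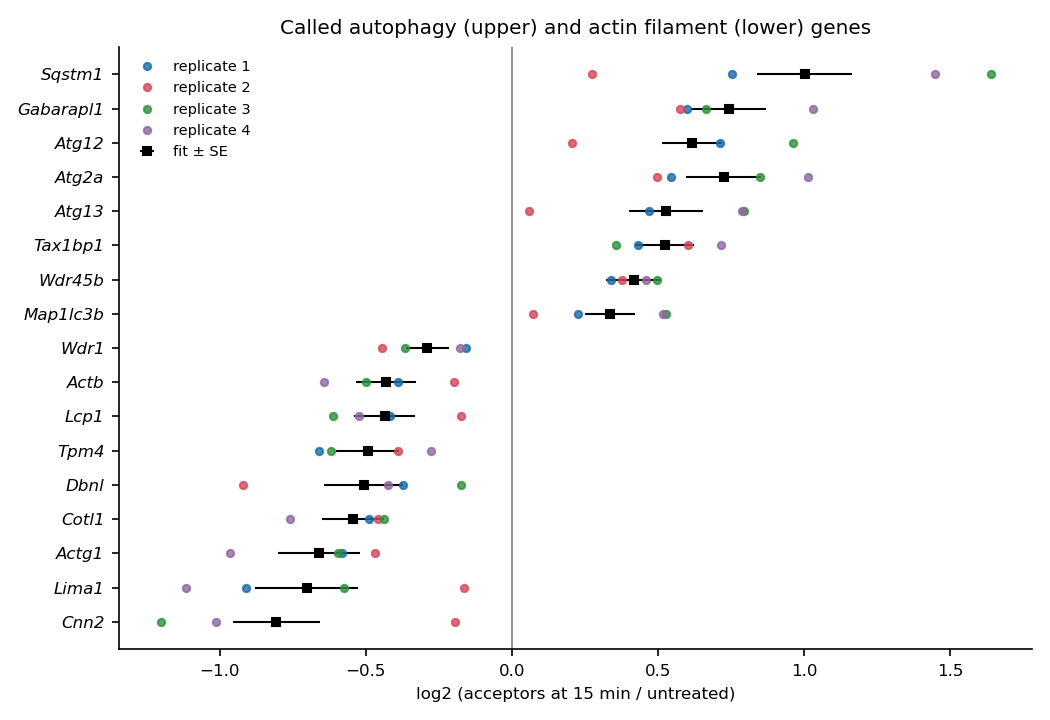
Log2 ratio of acceptors at 15 min to untreated for the 8 called autophagy genes and the 9 called actin filament genes, with a dot for each replicate pair and a square with SE for the fit. The fitted values lie between 0.33 and 1.00 for the first and between -0.81 and -0.29 for the second.

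Lists for microglial state and metabolism held at most 1 called gene each. Over all genes tested 2.25% were called, so such counts do not set these lists apart. None of 30 disease-associated microglia genes, 38 heat shock genes, 59 genes of oxidative phosphorylation, 24 of cholesterol synthesis and 15 targets of the sterol receptor LXR passed, and their medians lay between -0.21 and -0.0046. Of 29 homeostatic microglia genes only Tgfbr2 fell (3.45%), and the median was -0.18. Of 34 genes of glycolysis and hypoxia 1 fell (2.94%), Pdk1, which restrains pyruvate oxidation (-0.84, SE 0.23, adjusted p = 0.0370). Of 32 integrated stress response genes 1 rose, Slc7a11 (3.12%). Of 22 chemoattractant receptors 1 fell (4.55%), Cmklr1, the chemerin receptor, at 16.7, 40.9, 43.1 and 24.4 CPM against 37.2, 156, 50.1 and 38.5 CPM (-1.15, SE 0.31, adjusted p = 0.0325). Without replicate 2, whose untreated value was the highest, Cmklr1 changed by -0.64 and did not pass (adjusted p = 0.261). Tle3, a corepressor (-1.37, SE 0.23, adjusted p = 0.000642), and Luc7l3, a splicing factor (-0.76, SE 0.12, adjusted p = 0.000238), also fell.

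Adgre5, the adhesion receptor CD97, was looked at after its values were seen because donors express far more of it. It was at 5.19 ± 1.39 CPM (SD, n = 4) in acceptors at 15 min, 3.04 ± 0.621 CPM (SD, n = 4) in untreated cells and 89.3 ± 7.51 CPM (SD, n = 4) in donors at 15 min. The acceptor level was thus 5.81% of the donor level and the untreated level 3.41%. It rose by 0.79 (SE 0.20, adjusted p = 0.0255), but passed in none of the fits that left out a pair (adjusted p 0.0535 to 0.247). Adgre5 overlaps Ddx39 on the other strand. How far donor RNA entered the acceptor sort was not tested.

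Acceptors labelled 0 min (replicates 1 to 3) and 30 min (replicates 1 to 4) show where the 15 min values stand among the early times. These contrasts share the acceptors at 15 min with the main one, so their values are given side by side. By edgeR, no gene differed between 15 and 0 min (0% called; 439 genes at an unadjusted p under 0.05, or 199 without the block) or between 30 and 15 min (0% called; 417, or 111 without the block), and DESeq2 called none in either. A fit on only the 2 groups compared called Cxcl2 (log2 change 0.92, adjusted p = 0.00266) and Dusp1 (0.80, adjusted p = 0.0148), both higher at 15 than at 0 min, and St3gal5, a ganglioside synthase gene, higher at 30 than at 15 min (0.62, adjusted p = 0.0466). Dusp1 was at 144 to 188 CPM at 0 min, 281 to 556 CPM at 15 min and 281 to 729 CPM at 30 min. Its levels at 0 min lay within the untreated range of 56.8 to 221 CPM and below every sample at 15 min. Cxcl2 was at 95.9 to 107 CPM at 0 min, 174 to 215 CPM at 15 min and 171 to 299 CPM at 30 min, so at 0 min it was already above every untreated sample. Ier3 was at 15.9 to 33.7 CPM at 0 min and 31.3 to 140 CPM at 15 min. Txnip was at 150 to 166 CPM at 0 min, 42.8 to 129 CPM at 15 min and 54.1 to 138 CPM at 30 min. The fit gave Txnip a change of -0.84 (SE 0.19) from 0 to 15 min, the smallest p of that contrast, without passing (adjusted p = 1). Sqstm1 was at 781 to 898 CPM at 0 min and 845 to 1440 CPM at 15 min, and both ranges lay above the untreated range of 463 to 698 CPM. Mcm2 was at 8.86 to 14.2 CPM at 0 min against 7.61 to 11.5 CPM at 15 min. List medians from 0 to 15 min were 0.28 for immediate early genes, 0.04 for the NF-kB list, -0.03 for S-phase genes, 0.12 for interferon-stimulated genes, 0.02 for autophagy, 0.15 for FOXO targets and -0.02 for actin filament genes, beside 0.01 over all genes.

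**Figure D5:**
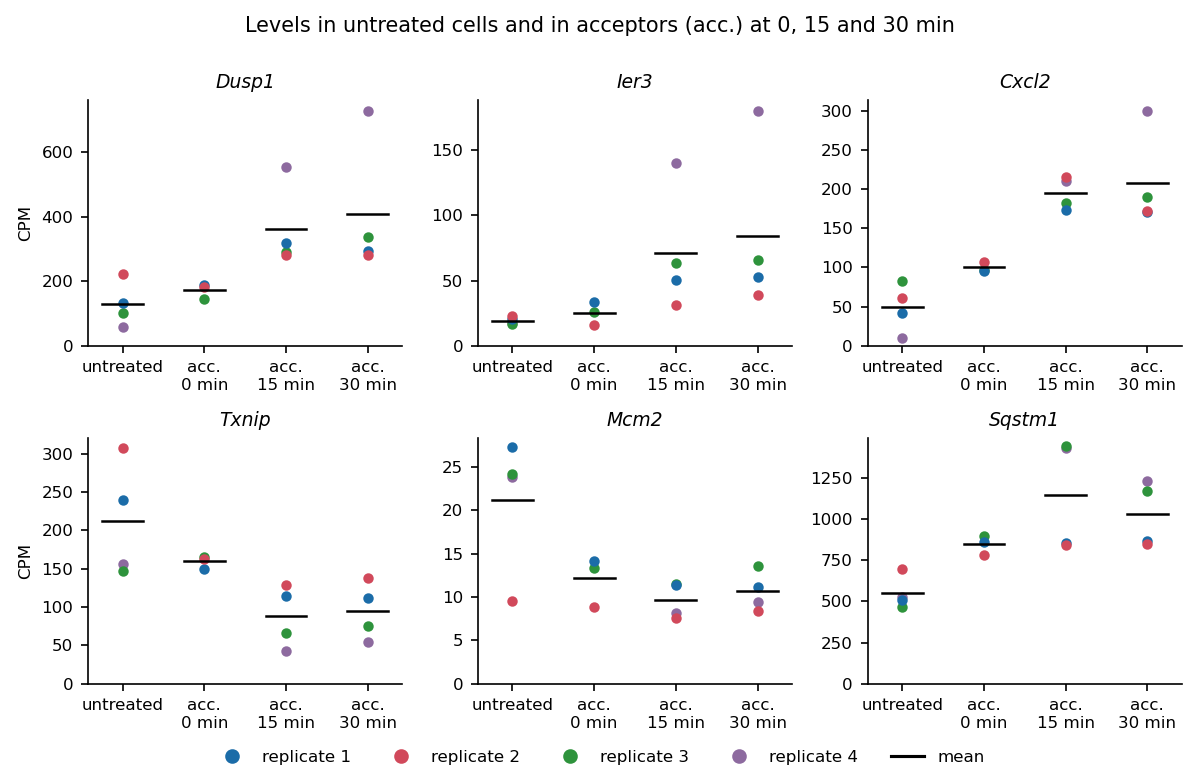
Level in CPM (linear axis from 0) of 6 genes in untreated microglia and in acceptors at 0, 15 and 30 min, with a dot per sample and a line at each mean. Dusp1 at 15 min (281 to 556 CPM) lies above all samples at 0 min (144 to 188 CPM), while Mcm2 at 15 min (7.61 to 11.5 CPM) overlaps its samples at 0 min (8.86 to 14.2 CPM).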

How the data were processed

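Gene expression was measured in primary mouse microglia by 3′ end sequencing (QuantSeq FWD, 50 base single reads). Per the submitters' processing notes, STAR, Partek, DESeq2 and the mm10 build were used, and how reads were counted is not given in the sources used here. The authors deposited raw counts per gene, and normalized values (a signal) that equalled count divided by a size factor within 0.06 for 100% of values. All tests used the deposited counts. Genes were filtered at a minimum count of 10 with filterByExpr, scaled by TMM and fitted with edgeR 4.0.16 (quasi-likelihood F test) over 52 samples of 14 groups, with group and replicate number as terms, and p-values were adjusted by Benjamini-Hochberg over 13169 of 16632 genes. A gene was called at an adjusted p under 0.05. SE is that of the log2 fold change, acceptors minus untreated.

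The replicate block was used because the comparison pairs samples by replicate number. Deviations from the group means correlated at 0.468 to 0.600 between same-numbered samples and at -0.449 to 0.239 between others, and same-numbered samples share a passage. Untreated libraries of one number differed by a chi-square per degree of freedom of 10.3 and 12.1, against 24.2 to 288 for other pairs, and were summed as 1 replicate each.

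Named genes were the 10 largest changes each way among called genes that moved alike in all 4 pairs with a mean of at least 5 CPM, the 5 smallest p-values each way, up to 3 members per gene list, and the markers; others are said to be chosen after their values were seen, as were the further members of the S-phase, interferon, oligodendrocyte and neuronal groups. The comparison and all 20 gene lists were chosen with earlier results of these data known, so lists are described by counts and medians. Gene positions are from GENCODE M21. Promoters are from RefSeq. Alternatives were no block, only the groups compared, RLE scaling, DESeq2 1.42.0, no filter, 1 untreated library per number, Rn45s left out, and each replicate left out. The fit was also run on simulated counts with changes set in advance. Those counts held no outlying samples, so they do not show how such samples affect the calls. Some genes are not reported here.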

Additional observations from a re-analysis of the deposited data

Results flagged for a closer look

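Of 210 groups of 4 values examined (95 genes in both groups and 20 list medians over the pairs), 23 had a sample far from the other 3. The cut used flags about 1 in 20 groups of independent, normally distributed values. Here the genes share samples and many were chosen for their changes, so the 23 cannot be set against that rate. The 23 held 1 value of replicate 1, 7 of replicate 2, 6 of replicate 3 and 9 of replicate 4.

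In acceptors of replicate 4, Dusp1 (556 CPM), Btg1 (468 CPM), Lcn2 (25.2 CPM) and Wdr45b (122 CPM) stood above the other acceptors, and Actg1 (961 CPM) and Cdca7 (0.948 CPM) below them. In untreated cells of replicate 4, Csf2rb was low (109 CPM) and Tax1bp1 high (157 CPM). The median of the LXR targets was 0.19 in pair 4, against -0.06 to -0.04 in the others.

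In untreated cells of replicate 2, Stat2 (385 CPM), Trim30a (595 CPM), Cmklr1 (156 CPM), H2-DMb1 (22.3 CPM), Bmf (17.1 CPM) and Ptgs2 (4.93 CPM) were high, and Trim30a was also high in its acceptors (340 CPM). In acceptors of replicate 3 the neural transcripts Fabp7 (66.6 CPM), Elavl3 (7.86 CPM), Tubb4a (2.39 CPM) and Cldn11 (1.83 CPM) were high, as were Tubb4a (8.91 CPM) and Syt4 (16.2 CPM) in its untreated cells. Rrm1 was high in acceptors of replicate 1 (32.1 CPM).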

How the results depend on the processing

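Against the 296 genes (2.25% of those tested) called with the replicate block, no replicate block gave 0 (0%), a fit on only the 2 groups compared gave 60 (0.522%; 16 higher, 44 lower, 37 of them among the 296), and DESeq2 with the block gave 494 (3.75%; 290 among the 296). RLE scaling gave 301, no filter 111 higher and 132 lower, 1 untreated library per number 349 or 341, and Rn45s left out 307. Leaving out a replicate gave 0.351% to 1.93% of genes. Between acceptors at 15 and 0 min, and at 30 and 15 min, every fit run called 0 genes, except the fit on only the groups compared, which called 2 (0.0173%) and 1 (0.00869%). No sign changed among the 75 called genes followed by name. Of these, 73 kept their call under RLE scaling and 73 with DESeq2, 68 with no filter, 16 of 74 in the fit on only the groups compared, 26, 46, 20 and 48 without replicates 1 to 4, and 0 with no block. The cause of the changes was not tested. Depth limits genes below about 1 CPM, where a sample holds few counts.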
